A study of Homo sapiens with 4 samples.

Results

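A set of 10 heat shock protein genes of the cytosol and mitochondria were followed in cells with and without an intact TXNDC9 gene. They were HSPA1A, HSPA1B, HSPA8, HSP90AA1, HSP90AB1, DNAJB1, HSPH1, HSPB1, HSPD1 and HSPE1, chosen by name with earlier results of these data known. Each symbol had 1 entry among the 57979 genes of the deposited expression table, and all 10 were among the 13246 genes with an average above 1 FPKM that were tested. FPKM is the number of sequenced fragments of a gene, scaled to the length of its transcript and to the mapped fragments of the library. The study asked which transcripts change when TXNDC9, a thioredoxin-domain protein of the cytosol and nucleus, is lost from liver cancer cells. Polyadenylated RNA was sequenced from cells labelled HepG2, a human liver cancer cell line, in 2 wild-type libraries and in 2 libraries of such cells in which TXNDC9 had been knocked out with CRISPR-Cas9. The knockout was made with a lentiviral plasmid carrying Cas9 and a guide RNA against TXNDC9, and the sources used here do not say whether the cells were a single clone. No label says that the libraries came from separate cultures, so the p-values measure only the spread between these libraries, which may be technical.

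Heat shock proteins are molecular chaperones, which bind unfolded or partly folded proteins and keep them from aggregating. HSP70 proteins take up clients that J proteins deliver, HSP110 proteins renew the nucleotide on HSP70, HSP90 completes the folding of kinases and receptors, and small heat shock proteins hold unfolded proteins without using ATP. The chaperonin of the mitochondrial matrix is a barrel of HSPD1 closed by a lid of HSPE1. Heat and other protein damage induce many of these genes through the transcription factor HSF1, which binds heat shock elements, that is, inverted repeats of the unit GAA. TXNDC9 is itself known as a binding partner of the cytosolic chaperonin, whose subunits are not among the 10 genes.

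In the knockout libraries TXNDC9 stood at 21.9 and 27.6 FPKM, against 35.1 and 37.3 FPKM in wild type. The groups did not overlap, but the log2 difference of -0.55 (SE 0.14) missed the threshold of an adjusted p under 0.01 (limma with Benjamini-Hochberg adjustment, adjusted p = 0.0145), and with libraries rescaled to a common total it was 0.12. It passed after centring, at -0.70 (limma adjusted p = 0.00401), with the replicate block (limma adjusted p = 0.00267) and among genes averaging over 5 FPKM (limma adjusted p = 0.00906). The study reports a reduced level of TXNDC9 protein in its knockout cells by western blot, which RNA values do not measure. Markers of hepatocytes were at or near 0 in all 4 libraries: ALB, AFP, APOA1, APOB, TTR, SERPINA1 and HNF4A reached 0.449 FPKM at most, and APOA1 was listed at 0 throughout. Markers of blood cells (PTPRC), endothelium (PECAM1) and fibroblasts (COL1A2) were at or below 0.261 FPKM. HepG2 cells are known to express hepatocyte genes such as ALB, AFP and APOA1, so these values go against the label of the cell line, and the cells are called here by their genotype alone. The FPKM of all genes summed to 805816 and 971102 in wild type and to 535973 and 568279 in knockout, so the choice of scale moved every gene. The median log2 difference of all tested genes was -0.09 as deposited, 0.59 after rescaling to TPM, which gives each library the same total, and -0.23 after centring each library on its median. Of all genes called, 48.3% were higher in knockout as deposited, 90.7% on the TPM scale and 35.8% after centring. Log2 differences below are knockout minus wild type on log2(FPKM + 0.1) as deposited, a scale that understates changes of low genes, with the TPM value where the direction turned.

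The start regions of 7 of the 10 genes held letters of the kind that HSF1 is known to bind, and a stretch of each of the 7 is printed to show how these units are arranged. RefSeq windows (GRCh38.p14) from 250 bases before to 50 after a start site were searched on both strands for GAANNTTC and TTCNNGAA, pairs of facing units that overlap where 3 units follow one another. GAANNTTC was found for 7 of the 10 genes and in 6.769% of all 35116 windows. TTCNNGAA was found for 3 of the 10 and in 7.737% of windows. Runs of 3 units, either pair followed by a further unit 2 bases on, were found for HSPA8, HSP90AA1 and HSPD1 and in 0.490% of all windows. These are stretches read 5′ to 3′ on each gene's own strand, with heat shock units in capitals, and with the TATA box letters TATAAA also in capitals for HSPA1A and HSPA1B.
HSPA1A (chr6:31815418-31815522, plus strand): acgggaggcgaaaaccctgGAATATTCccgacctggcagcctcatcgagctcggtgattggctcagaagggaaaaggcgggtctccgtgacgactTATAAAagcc
HSPA1B (chr6:31827614-31827718, plus strand): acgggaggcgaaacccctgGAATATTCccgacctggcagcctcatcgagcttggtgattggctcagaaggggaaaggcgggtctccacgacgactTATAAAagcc
HSPA8 (chr11:123062169-123062198, minus strand): gggccccTTCTGGAAGGTTCtaagataggg
HSP90AA1 (chr14:102087100-102087144, minus strand): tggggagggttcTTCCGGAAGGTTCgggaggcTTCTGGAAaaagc
DNAJB1 (chr19:14518428-14518487, minus strand): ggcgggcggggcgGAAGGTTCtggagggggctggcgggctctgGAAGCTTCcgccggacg
HSPB1 (chr7:76302478-76302507, plus strand): ttccttaacgagaGAAGGTTCcagatgagg
HSPD1 (chr2:197500061-197500090, minus strand): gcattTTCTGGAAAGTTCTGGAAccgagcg

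HSPA1A and HSPA1B, neighbours on chromosome 6, differed at 5 of these 105 bases. TATAAA was found in the windows of those 2 of the 10 genes and in 11.53% of all windows. Neither pair was found in the windows of HSP90AB1, HSPH1 and HSPE1, which says only that these letters are not in those windows. For HSP90AB1 a further RefSeq start, at position 44247943, had 2 runs of 3 units in its window, and the HSPH1 window was centred 484 bases from the start of its canonical transcript in GENCODE release 44. CACGTG, the letters of the E-box that MYC is known to bind, was found in the window of HSPE1 and in 7.256% of all windows. The window of a further RefSeq start of HSPD1, at position 197500274, also held CACGTG. The HSPD1 stretch printed above ends 289 bases from the start site of HSPE1 and 39 bases outside its window. Letters of this kind are a description and no sign that a factor was bound in these cells.

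HSPB1, HSPA1A and HSPE1 were called lower in knockout, which required a change of 2-fold or more and an adjusted p under 0.01, by limma with Benjamini-Hochberg adjustment over all 13246 genes. Thus 3 of the 10 genes were called lower, beside 15.3% of all tested genes, and 0 of the 10 higher, beside 14.2%. At the same adjusted p without the demand on fold change, HSPA8 and HSPA1B passed as well, giving 5 of 10 lower beside 27.1% of all genes and 0 of 10 higher beside 23.7%. Both knockout values lay below both wild-type values for 6 of the 10, the sixth being DNAJB1, beside 45.9% of all genes, and above them for 0, beside 40.1%. The groups overlapped for HSP90AA1, HSP90AB1, HSPH1 and HSPD1. In RNA from whole cultures, fewer cells that express a gene and less of its RNA per cell cannot be told apart. The median log2 difference of the 10 was -0.50, against -0.09 for all tested genes. On the TPM scale it was 0.18 against 0.59, with 4 genes passing lower, beside 10.4% of all genes on that scale, and 5 passing higher, beside 44.7%. HSPB1 alone was changed at least 2-fold there, beside 3.37% of all genes called lower. HSPA1A, HSPA1B, HSPA8, HSPB1 and HSPE1 kept a negative difference under all 16 alternative settings tried, whereas the direction of each of the other 5 genes turned under at least 1. Several of these settings could not turn a sign. The other filters, the other p threshold, no trend, the replicate block and sums of repeated symbols leave each gene's difference as it was. With knockout replicate 1 or knockout replicate 2 left out, 0 of the 10 and 0 of all 13246 genes were called.

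**Figure D1:**
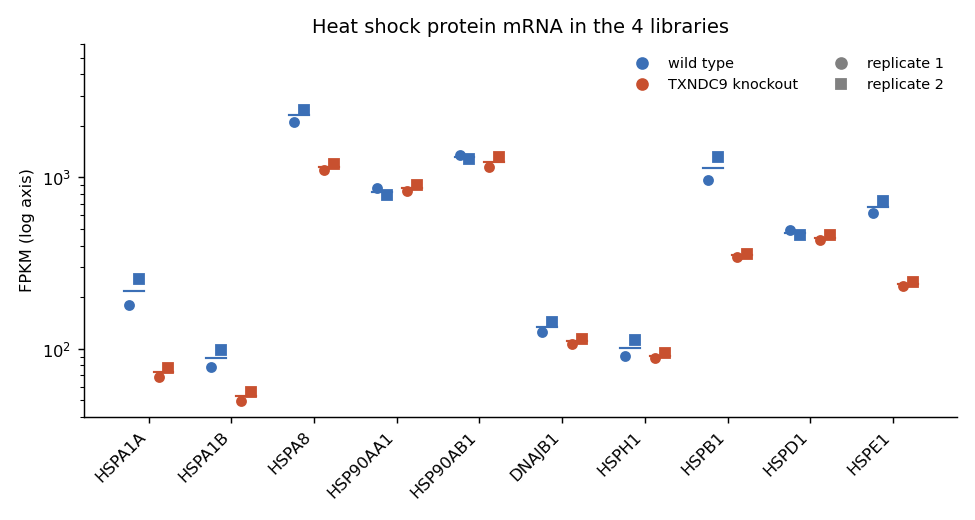
FPKM of the 10 heat shock genes on a log axis in each library, wild type in blue and TXNDC9 knockout in red, with circles for replicate 1, squares for replicate 2 and a bar at each group's mean. As deposited, both knockout points lie below both wild-type points for HSPA1A, HSPA1B, HSPA8, DNAJB1, HSPB1 and HSPE1, and the groups overlap for the other 4; on the TPM scale the difference of DNAJB1 turned to 0.40.

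HSPA8 encodes the constitutive HSP70 of the cytosol, HSC70, which folds new proteins and uncoats clathrin vesicles. It was the most abundant of the 10 in wild type, at 2105 and 2487 FPKM, and fell to 1111 and 1191 FPKM in knockout. All wild-type values were higher than all knockout values, with means of 2296 ± 270.1 and 1151 ± 56.9 FPKM (SD, n = 2). The log2 difference was -0.99 (SE 0.19, 95% interval -1.46 to -0.53, limma adjusted p = 0.00521), so the gene passed the p threshold and stopped just short of 2-fold. It was called under centring, at -1.14, and without wild type replicate 1, at -1.11, while on the TPM scale the difference was -0.31. The gene lies on the minus strand at chr11:123057489-123063230. Its canonical transcript shared no stretch of 100 bases, read in the sense direction, with a transcript of another annotated gene. Exons of SNORD14C and SNORD14D on the same strand, and of an unnamed gene on the other, overlap those of HSPA8.

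HSPA1A and HSPA1B encode the stress-inducible HSP70 of the cytosol, in single-exon genes that differ little in sequence. HSPA1A (chr6:31815543-31817946, plus strand) was at 180.1 and 253.6 FPKM in wild type, compared with 68.9 and 77.6 FPKM in knockout. The knockout values were well below the wild-type ones, which themselves differed by more than the knockout values did. The log2 difference was -1.55 (SE 0.19, 95% interval -2.01 to -1.08, limma adjusted p = 0.00115), a 2.96-fold lower mean. It passed the p threshold but was not called on the TPM scale, at -0.87, or with each library corrected for the length and GC content of transcripts, at -0.97. HSPA1B (chr6:31827738-31830254, plus strand) was at 78.4 and 97.7 FPKM in wild type and, in knockout, at 49.9 and 56.3 FPKM. Its groups did not overlap either, but the step was smaller, at -0.72 (SE 0.14, limma adjusted p = 0.0064), and on the TPM scale it shrank to -0.04 (limma adjusted p = 0.714). Of the 100-base windows in the HSPA1A transcript, 72.4% were also found in HSPA1B, so the split of reads between the copies is uncertain. Added together as deposited, the pair had 259 and 351 FPKM in wild type against 119 and 134 FPKM in knockout, a 2.41-fold lower mean. No sum was made on the TPM scale, where the differences of both genes were smaller.

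DNAJB1 encodes HSP40, the J protein that hands clients to the stress-inducible HSP70. It was at 125 and 144 FPKM in wild type, compared with 106 and 114 FPKM in knockout. The knockout values were the lower ones, without overlap, yet the log2 difference of -0.28 (SE 0.12, 95% interval -0.59 to 0.03) did not pass (limma adjusted p = 0.0924), and on the TPM scale it was 0.40. HSPH1 encodes HSP110 of the cytosol, which acts on HSP70 as an exchange factor and holds clients itself. Its values were 90.5 and 112 FPKM in wild type and, in knockout, 88.1 and 94.2 FPKM, so the groups overlapped. The log2 difference was -0.15 (SE 0.14, 95% interval -0.49 to 0.20, limma adjusted p = 0.384) and 0.53 on the TPM scale. Exons of TECR and MIR639 overlap those of DNAJB1 on the other strand, and the use of strand in counting is not given in the sources used here.

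HSP90AA1 and HSP90AB1 encode the inducible and the constitutive HSP90 of the cytosol. HSP90AA1 (chr14:102080742-102139699, minus strand) was at 864 and 784 FPKM in wild type, compared with 828 and 902 FPKM in knockout. A wild-type library lay between the knockout libraries, and the difference was smaller than the spread within the groups. The log2 difference was 0.07 (SE 0.16, 95% interval -0.32 to 0.46, limma adjusted p = 0.709), -0.07 after centring and 0.75 on the TPM scale. HSP90AB1 (chr6:44246166-44253888, plus strand) was at 1349 and 1276 FPKM in wild type and, in knockout, at 1151 and 1319 FPKM. Again the groups overlapped, with the lowest value in knockout replicate 1. Its log2 difference was -0.09 (SE 0.17, 95% interval -0.52 to 0.34, limma adjusted p = 0.663) and 0.59 on the TPM scale. As deposited, both intervals exclude a 2-fold difference in either direction. Exons of WDR20 overlap those of HSP90AA1 on the other strand.

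HSPB1 encodes HSP27, a small heat shock protein that also binds actin filaments. This gene (chr7:76302673-76304295, plus strand) had the largest log2 drop of the 10 as deposited. It went from 968 and 1309 FPKM in wild type to 345 and 356 FPKM in knockout. The knockout libraries lay close together and far below both wild-type libraries, with means of 350.3 ± 7.97 and 1138 ± 241 FPKM (SD, n = 2). The log2 difference was -1.68 (SE 0.19, 95% interval -2.15 to -1.21, limma adjusted p = 9.53e-04), a 3.25-fold lower mean. Of all tested genes, 4.07% had as low a difference or lower. HSPB1 was the single gene of the 10 that was still called on the TPM scale, at -1.003. With each library corrected for length and GC content it was at -0.79 and no longer called. HSPE1 then had the largest drop, at -1.37, and HSPA1A, HSPA8 and HSPH1 also lay below HSPB1.

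HSPD1 and HSPE1, the barrel and the lid of the mitochondrial chaperonin, lie head to head on chromosome 2 with 539 bases between their start sites. HSPD1 (chr2:197486584-197516737, minus strand) was at 493 and 458 FPKM in wild type, compared with 428 and 461 FPKM in knockout. The groups overlapped, and the log2 difference was -0.10 (SE 0.14, 95% interval -0.44 to 0.24, limma adjusted p = 0.550), turning to 0.58 on the TPM scale. HSPE1 (chr2:197500140-197503449, plus strand) was at 620.3 and 726 FPKM in wild type and, in knockout, at 233 and 244 FPKM. Every knockout value was under every wild-type value by a wide margin, and the means were 239 ± 7.84 and 673 ± 75.1 FPKM (SD, n = 2). The log2 difference was -1.49 (SE 0.14, 95% interval -1.85 to -1.13, limma adjusted p = 6.85e-04), a 2.82-fold lower mean, and -0.81 on the TPM scale. Of the 100-base windows in the HSPE1 transcript, 20.5% also occur in HSPE1-MOB4, a read-through gene on the same strand, and some others in HSPE1 pseudogenes. Exons of HSPE1 and HSPD1 also overlap on opposite strands, where reads cannot be told apart if strand was not used. HSPE1-MOB4 was at 5.05 and 5.57 FPKM in wild type, compared with 1.19 and 1.11 FPKM in knockout, low beside HSPE1 in every library. Pseudogenes named after HSPA8, DNAJB1, HSPB1, HSPD1 and HSPE1 had 61 entries, of which 49 were listed at 0 in all libraries. Their highest value was 0.825 FPKM. The pseudogenes HSP90AA2P, HSP90AA3P and HSP90AB3P, which share windows of 100 bases with HSP90AA1 or HSP90AB1, are named otherwise and were not counted.

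**Figure D2:**
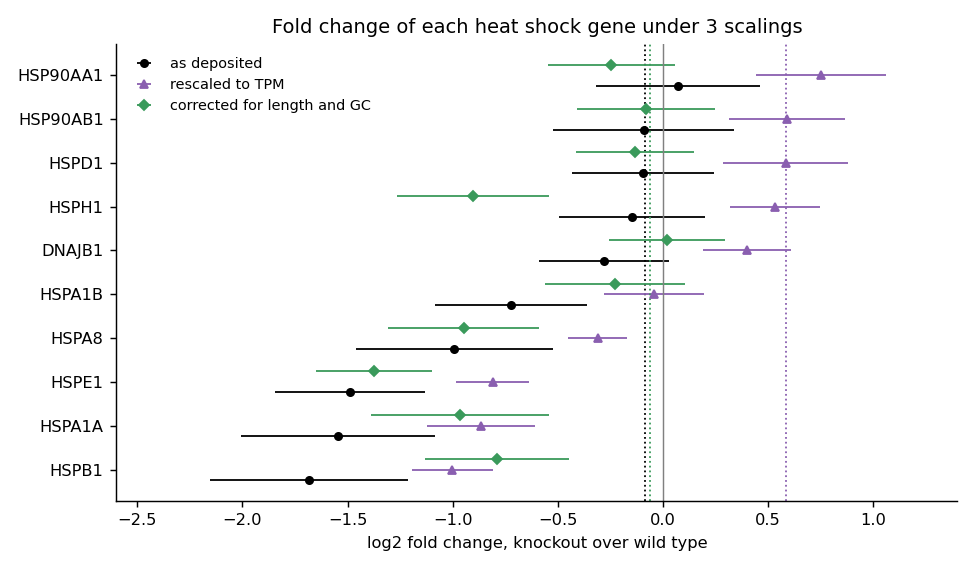
Log2 difference between knockout and wild type for each of the 10 genes with its 95% interval, as deposited (black circles), rescaled to TPM (purple triangles) and corrected for transcript length and GC content (green diamonds), with dotted lines at the median of all tested genes on each scale. HSPB1, HSPA1A, HSPE1 and HSPA8 lie below 0 on all 3 scales with intervals that exclude 0, while HSP90AB1, HSPD1, HSPH1 and DNAJB1 turn from below 0 as deposited to between 0.40 and 0.59 on the TPM scale.

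The order of the genes by FPKM, which is a level per transcript length, changed with the knockout. In wild type it ran from HSPA8 through HSP90AB1, HSPB1, HSP90AA1, HSPE1, HSPD1, HSPA1A, DNAJB1 and HSPH1 to HSPA1B, and neighbours overlapped at HSP90AB1 with HSPB1 and at HSPH1 with HSPA1B. In knockout HSP90AB1 came first with HSPA8 overlapping it, followed by HSP90AA1, HSPD1, HSPB1, HSPE1, DNAJB1, HSPH1, HSPA1A and HSPA1B, with no other overlap between neighbours. HSPD1 thus moved above HSPB1 and HSPE1, and HSPA1A moved below DNAJB1 and HSPH1. The 10 genes together had 6873 and 7648 FPKM in wild type and, in knockout, 4409 and 4815 FPKM. As a share of the summed FPKM of the library this was 0.853% and 0.788% in wild type and 0.823% and 0.847% in knockout, so the groups overlapped.

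Ratios between 2 genes within a library do not depend on the scale of the library, and 8 of them were compared. All 8 separated the groups without overlap, as did 85.2% of all pairs of tested genes above 0 in every library, so that separation alone is no result about these genes. With 2 libraries against 2 an exact two-sided permutation test cannot give a p under 0.333, which each ratio had. The widest step was in HSPE1 to HSPD1, the lid to the barrel, from 1.26 and 1.59 in wild type to 0.545 and 0.531 in knockout. The lid transcript was thus the higher of the pair in both wild-type libraries and the lower in both knockout libraries. HSPB1 to HSPA8 went from 0.460 and 0.526 to 0.310 and 0.299, and HSPA1A to HSPA8 from 0.0856 and 0.102 to 0.0620 and 0.0651. In the other direction, HSPH1 to HSPA8 went from 0.0430 and 0.0452 to 0.0793 and 0.0791, and DNAJB1 to HSPA8 from 0.0592 and 0.0579 to 0.0956 and 0.0961. HSPH1 and DNAJB1 were thus higher relative to HSC70 in both knockout libraries, for HSPH1 by only 0.04 on the log2 scale once transcript length and GC content were corrected for. HSPA1B to HSPA8 was 0.0373 and 0.0393 in wild type and 0.0449 and 0.0473 in knockout, with the reads it shares with HSPA1A unresolved. HSP90AA1 to HSP90AB1 was 0.641 and 0.614 in wild type against 0.720 and 0.684 in knockout, a 1.12-fold step. HSPD1 to HSPA9, which encodes the HSP70 of the mitochondrial matrix, was 1.98 and 2.003 against 1.86 and 1.86, the smallest step of the 8 as deposited. These ratios show unequal change and not which of the paired genes moved.

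**Figure D3:**
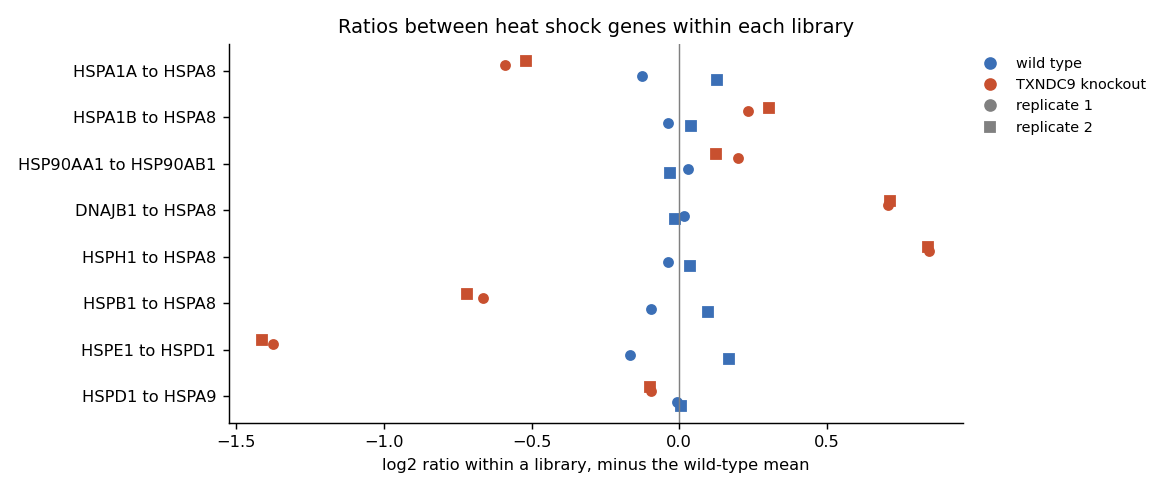
Log2 ratio of 8 pairs of heat shock genes within each library, minus the wild-type mean of that ratio, with wild type in blue, knockout in red, circles for replicate 1 and squares for replicate 2. No pair overlaps between groups; HSPE1 to HSPD1 lies lowest in knockout, at a mean of -1.39, and HSPH1 to HSPA8 highest, at 0.84.

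Transcript length and base composition moved with the differences across the whole table. The log2 difference had a Spearman correlation of 0.495 with the length and of -0.462 with the GC content of the canonical transcript over 13112 genes, which come from the same 4 libraries and are not independent replicates. Genes with transcripts under 1000 bases had a median of -0.84, and those of 5000 bases or more a median of 0.73. HSPE1 and HSPB1 have the shortest transcripts of the 10, at 557 and 777 bases, and HSPH1 has the longest, at 5244 bases. HSPA1A, HSPA1B, HSPA8, HSP90AB1, DNAJB1 and HSPD1 have transcripts between 2242 and 2555 bases, where the median of all genes (2000 to 3000 bases) was -0.28, and these 6 genes ran from -1.55 to -0.09. After each library was corrected for length and GC content, HSPE1 alone of the 10 was still called, at -1.37, beside an all-gene median of -0.06 and 7.71% of all genes called lower. HSPB1 and HSPA1A still passed the p threshold but were under 2-fold, at -0.79 (limma adjusted p = 0.00578) and -0.97 (limma adjusted p = 0.00585), HSPA8 was at -0.95, and HSPA1B no longer passed, at -0.23 (limma adjusted p = 0.204). HSPH1 then passed lower, at -0.90 (limma adjusted p = 0.00448), whereas DNAJB1 was at 0.02, HSP90AA1 at -0.25, HSP90AB1 at -0.08 and HSPD1 at -0.13. The difference between the log2 changes of HSPE1 and HSPD1 was -1.39 before the correction and -1.24 after it. That between HSPB1 and HSPA8 went from -0.69 to 0.16, between HSPA1A and HSPA8 from -0.55 to -0.02, and between HSPH1 and HSPA8 from 0.84 to 0.04. DNAJB1 against HSPA8 went from 0.71 to 0.97 and HSPA1B against HSPA8 from 0.27 to 0.72. The sign thus turned for HSPB1 against HSPA8. It also turned for HSP90AA1 against HSP90AB1, from 0.16 to -0.17, and for HSPD1 against HSPA9, from -0.10 to 0.42. The part of length and composition in these differences was not tested beyond this correction.

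**Figure D4:**
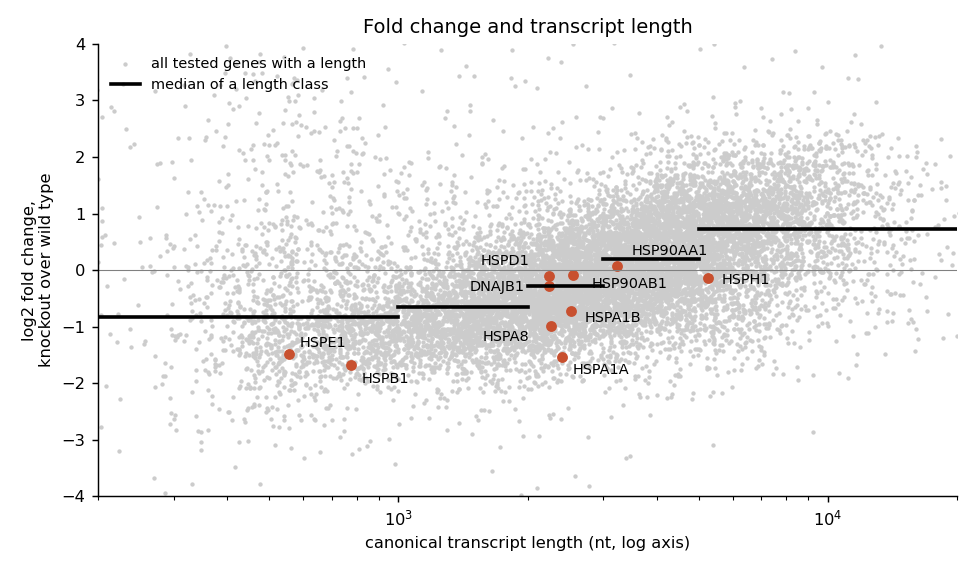
Log2 difference, knockout over wild type as deposited, against canonical transcript length on a log axis for the tested genes with a length that fall within the axes (grey), with the 10 heat shock genes in red and black bars at the median of each length class. The bars climb from -0.84 under 1000 bases to 0.73 at 5000 bases or more, and HSPE1 and HSPB1 lie among the shortest transcripts. HSPA1A at -1.55 and HSPD1 at -0.10 lie apart at similar lengths but differ in GC content, at 59.8% and 41.7%. Corrected for length and GC content they were at -0.97 and -0.13.

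The partners of the 10 genes were described from 8 lists with 72 genes, of which 65 were tested. Of the 65, 12 (18.5%) were called lower, beside 15.3% of all genes, and 3 higher, beside 14.2%. These shares of all genes stand beside the calls as deposited in each list below. On the TPM scale 1 (1.54%) was called lower, beside 3.37% of all genes, and 9 higher, beside 4380 of all 13246 genes. After the correction 7 (10.8%) were called lower, beside 7.71% of all genes, and 0 higher, beside 866 of 13112 genes. The median over the 65 was -0.46 as deposited and 0.22 on the TPM scale, against -0.09 and 0.59 for all genes. Of the genes named from these lists, 17 of 23 share exonic bases with another annotated gene on one strand or the other.

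HSF1, the master activator of heat shock genes, fell from 89.9 and 98.1 FPKM to 40.1 and 41.7 FPKM, a log2 difference of -1.20 (limma adjusted p = 5.96e-04). Both knockout values were under both wild-type values, the TPM value was -0.52 and the corrected value -0.36 (limma adjusted p = 0.0216). HSF4 also fell, at -1.22, but was at -0.54 on the TPM scale (limma adjusted p = 0.0121) and at -0.26 after the correction (limma adjusted p = 0.201). As deposited, 2 of the 4 genes in the list of HSF factors and their regulator were called lower, beside 15.3% of all genes. None was called higher, beside 14.2%. On the TPM scale 0 of the 4 were called lower, beside 3.37% of all genes, and 1 higher, beside 4380 of 13246 genes. After the correction 1 was called lower, a gene other than HSF1 and HSF4, beside 7.71% of all genes. None was called higher there, beside 866 of 13112 genes. The list median was -0.82 as deposited and -0.14 on the TPM scale.

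Among the other HSP70 and HSP110 genes of the cytosol, 4 of 6 were tested, 0 were called lower and 1 was called higher. That gene was HSPA4L, an HSP110 relative known for its role in testis, which rose from 11.8 and 7.46 FPKM to 31.4 and 33.1 FPKM, at 1.77. Its transcript is 10608 bases long, and after the correction its difference was 0.59 (limma adjusted p = 0.0419). HSPA4, a further HSP110 protein, had -0.39 as deposited and 0.29 on the TPM scale, without passing, and HSPA14 had 0.25 without passing. HSPA6, the strictly heat-inducible HSP70, was at 0.350 FPKM at most and was not tested.

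Of the J proteins of the cytosol and nucleus, 12 of 13 were tested, 2 were called lower and 1 higher. DNAJB2, a neuronal J protein that sorts clients to the proteasome, went from 30.8 and 34.3 FPKM to 10.04 and 11.02 FPKM, at -1.62. DNAJC7, which bridges HSP70 and HSP90, was at -1.04, and at -0.36 on the TPM scale. DNAJB4, a close relative of DNAJB1, went the other way, from 15.9 and 14.1 FPKM to 35.4 and 37.2 FPKM, at 1.27 as deposited and 0.73 after the correction. Among exchange factors and other HSP70 cofactors, 3 of 9 were called lower and 1 higher. STUB1, the ubiquitin ligase CHIP that marks HSP70 clients for breakdown, was at -1.39, the exchange factor HSPBP1 at -1.19 and BAG6, which handles tail-anchored proteins, at -1.09. After the correction none of the 3 was called: STUB1 was at -0.38 (limma adjusted p = 0.0220), HSPBP1 at -0.23 (limma adjusted p = 0.101) and BAG6 at -0.80. BAG4, another exchange factor, was called higher, at 1.01, from 4.57 and 5.11 FPKM to 9.91 and 9.71 FPKM, and after the correction it was at 0.38 (limma adjusted p = 0.0474).

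Cochaperones steer clients to HSP90 and time its ATP cycle. Of the 11 listed, all of them tested, 7 passed lower, beside 27.1% of all genes, and 0 higher, beside 23.7%. At least 2-fold lower were 2 of the 11, beside 15.3% of all genes. On the TPM scale it was 0 of the 11, beside 3.37%, and after the correction 0, beside 7.71%. At any fold, 2 passed lower on the TPM scale, beside 10.4% of all genes, and 1 higher, beside 44.7%. CDC37, which brings kinases to HSP90, went from 301 and 359.9 FPKM to 103 and 109.6 FPKM, at -1.63. After the correction it was at -0.81 and no longer called. AHSA1, which speeds the ATPase of HSP90, was at -1.34, and at -0.82 after the correction. The list had a median of -0.61 as deposited and 0.07 on the TPM scale.

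Of the other genes listed as small heat shock proteins, 4 of 8 were tested, 1 was called lower and 0 higher. CRYAB, the lens and muscle crystallin that pairs with HSPB1, went from 9.71 and 12.9 FPKM to 3.27 and 2.99 FPKM, at -1.81 as deposited and -1.14 on the TPM scale. HSPB11 had -0.50 as deposited and 0.18 on the TPM scale, and HSPB8 -0.11 and 0.57, neither of them passing as deposited. CRYAB shares exonic bases with HSPB2 on the other strand, whose highest value was 0.0718 FPKM.

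In mitochondria, HSPA9 stood at 249 and 229 FPKM in wild type, compared with 229.8 and 248 FPKM in knockout. The knockout values lay within the range of the wild-type values, with a log2 difference near 0 (SE 0.12, 95% interval -0.31 to 0.31) as deposited. Both other scales moved it past the p threshold, to 0.68 on the TPM scale (limma adjusted p = 0.00331) and to -0.55 after the correction (limma adjusted p = 0.00663). TRAP1, the HSP90 of mitochondria, passed lower, at -0.87, but not on the TPM scale, at -0.19 (limma adjusted p = 0.0850), or after the correction, at -0.35 (limma adjusted p = 0.0350). CLPP, the matrix protease that degrades unfolded proteins, was called lower, at -1.15, and was at -0.47 on the TPM scale and -0.78 after the correction. Of the 13 mitochondrial genes listed, 6 passed lower, beside 27.1% of all genes, and 1 higher, beside 23.7%. On the TPM scale 1 of the 13 passed lower, beside 10.4% of all genes, and 4 higher, beside 44.7%. The list median was -0.62 as deposited and 0.05 on the TPM scale.

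In the endoplasmic reticulum, whose chaperones answer to another stress pathway, 5 of 8 listed genes passed lower and 1 higher. The shares of all genes were 27.1% lower and 23.7% higher. The list had a median of -0.74 as deposited and -0.06 on the TPM scale, where 1 passed lower and 2 higher, beside 10.4% and 44.7% of all genes. HSPA5, the HSP70 of that compartment known as BiP, went from 269 and 278 FPKM to 161 and 183 FPKM, at -0.67 as deposited, 0.01 on the TPM scale and -1.02 after the correction. HSP90B1 went from 510.2 and 671 FPKM to 309.6 and 340.4 FPKM, at -0.85. The largest fall in the list was that of SDF2L1, a cofactor of the BiP system, at -1.14, which was -0.46 on the TPM scale and -0.21 after the correction (limma adjusted p = 0.162). The HSP90 of this compartment thus passed lower as deposited (limma adjusted p = 0.00748), while both cytosolic HSP90 genes overlapped between groups. On the TPM scale HSP90B1 did not pass, at -0.17 (limma adjusted p = 0.0962), and after the correction it was called lower, at -1.04 (limma adjusted p = 0.00380).

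**Figure D5:**
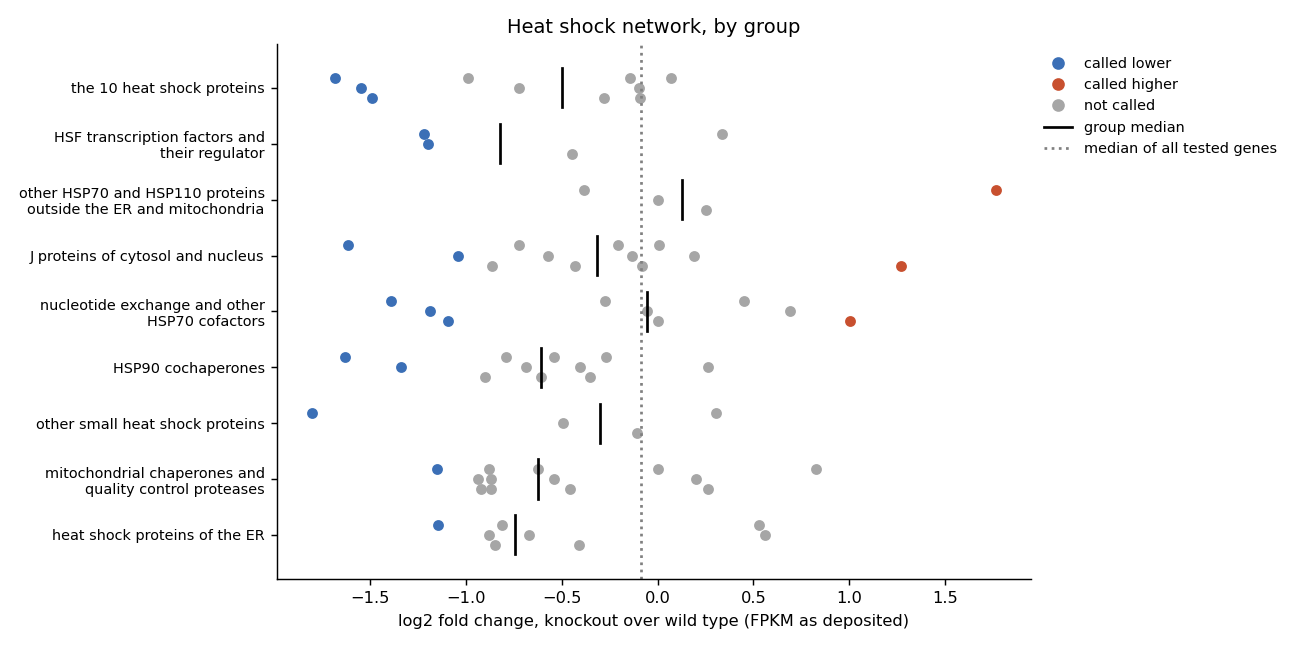
Log2 difference, knockout over wild type as deposited, of the 10 heat shock genes and of the tested genes of 8 lists of their partners, with genes called lower in blue, called higher in red and not called in grey, a black bar at each group's median and a dotted line at the median of all tested genes. Among the lists, the HSF genes have the lowest median, at -0.82, and the other HSP70 and HSP110 genes the highest, at 0.13; on the TPM scale 4 of the 23 genes named from the lists turned direction.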

How the data were processed

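The authors selected polyadenylated RNA, mapped reads to hg38 with TopHat2 and ran Cuffdiff, whose FPKM per gene and library they deposited; versions and the annotation release are not given in the sources used here. The deposited table also holds group averages and the authors' own fold changes, p-values and q-values, none of which were used. Identifiers were out of register with the symbols and were put back in order, after which all 10 genes matched their names in GENCODE release 44. The files hold no counts, so the depth is unknown and no counting intervals are given.

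The two-sided comparison used limma 3.58.1 (R 4.3.3, prior variance with a trend) on log2(FPKM + 0.1) for the 13246 genes averaging over 1 FPKM, with Benjamini-Hochberg adjustment over all of them. Calls needed at least 2-fold and an adjusted p under 0.01, the study's rule with limma in place of Cuffdiff. Other settings tried were pseudocounts of 1 and 0.01, an average above 5 or no filter, an adjusted p under 0.05, TPM, median centring, no trend, a replicate block, loess correction (span 0.3) for length and GC content, sums of repeated symbols and each library left out.

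The 10 genes and the lists were chosen with earlier results of these data known. Genes named were the 10, TXNDC9, HSF1, HSPA9, HSPA5, HSP90B1 and, per list, up to 4 called genes with the largest change and, where fewer than 2 were called, the 2 highest by mean FPKM. HSPA6, HSPB2 and HSPE1-MOB4 were named after their values were seen. Promoters are from RefSeq (GRCh38.p14), and windows of 100 bases were compared over GENCODE transcripts. Python 3.11.15, pandas 2.3.3, numpy 2.4.6 and matplotlib 3.10.9 were used.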

Additional observations from a re-analysis of the deposited data

How the results depend on the processing

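Of the 10 genes, 3 were called lower as deposited, 1 on the TPM scale (HSPB1), 1 with the correction for length and GC content and 1 with that correction and the replicate block (HSPE1 in both), and between 0 and 4 with a library left out. The count was 4 without wild type replicate 1, 3 without wild type replicate 2 and 0 without either knockout library. In both of these last fits 0 of 13246 genes were called by limma, with 7129 and 7307 genes, 4 of the 10 among them, at an unadjusted p under 0.05, and the remaining knockout library was assumed to vary like wild type. No setting called any of the 10 higher. Their median turned to 0.18 on the TPM scale and lay between -0.63 and -0.37 with a library left out. On the TPM scale the direction also turned for HSP90AB1 (0.59), DNAJB1 (0.40), HSPH1 (0.53) and HSPD1 (0.58). It turned for HSP90AA1 after centring (-0.0727) and with the correction (-0.25), and for DNAJB1 with the correction (0.0184), with the same values when the replicate block was added. With a library left out, HSPH1 ran from -0.30 to 0.00974 (without wild type replicate 2) and HSP90AB1 from -0.19 to 0.00735 (without TXNDC9 knockout replicate 1). The cause was not tested.

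HSPA1A, HSPB1 and HSPE1 passed the p threshold in 14 of 16 alternatives, HSPA8 in 13 and HSPA1B in 9. Not all of these alternatives could have failed. An adjusted p under 0.05 on the same fit is met by any gene under 0.01, and sums of repeated symbols left these genes' values unchanged. Over all genes, 2021 were called lower and 1885 higher as deposited, 447 and 4380 on the TPM scale, 1011 and 866 with the correction, and 1419 and 1581 of 26435 genes without a filter. Same-numbered libraries deviated with a correlation of -0.0904, so the replicate numbers were not taken to pair the libraries. The replicate block gave 2146 lower and 1960 higher, with 3 and 0 of the 10. No depth could be set against any value.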
